A study of Rattus norvegicus with 6 samples.

Results

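Short, CpG-dense stretches with almost no methylation were examined in the rat hippocampus by whole-genome bisulfite sequencing (WGBS). The autosomes were divided into tiles of 1000 nucleotides, and methylation was pooled over all 6 samples as methylated reads over all reads. A tile was taken when it held at least 30 CpGs, had at least 50 reads in each sample, was methylated below 10%, and lay in a run of 1 to 4 consecutive tiles that were each below 15%. This gave 16782 short unmethylated tiles of 1421817 autosomal tiles with enough reads, or 1.18%. They made up 44.6% of the 37604 CpG-dense tiles with enough reads and lay in 12108 runs. A further 143 CpG-dense tiles were short of reads in some sample, 87 of them in iron-sufficient replicate 2, and were not classified. Low methylation, high CpG number and short runs were set by this choice and are description, not results.

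The 3 iron-deficient samples were hippocampi of Sprague-Dawley pups whose dams received a diet with 4 ppm iron from gestational day 2 to postnatal day 7 and then the 200 ppm diet. Dams of the 3 iron-sufficient samples received 200 ppm iron throughout, and all pups were dissected on postnatal day 15. Sex and litter of the pups are not given in the sources used here. The samples are bulk tissue with neurons, glia and other cells, so a change within cells and a change in the mixture of cells cannot be told apart. Each sample listed 16699344 to 21093430 CpGs with a median coverage of 17 to 33 reads. Iron-sufficient replicate 2 listed the fewest CpGs, and it stands apart in several results below.

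In vertebrate genomes most CpGs are methylated, and the exceptions are largely CpG islands, CpG-rich stretches found at many promoters of housekeeping and developmental genes. Proteins with a CXXC domain bind unmethylated CpGs there and recruit enzymes that act on histone tails. The DNA methyltransferase Dnmt1 copies methylation to the new strand after replication. The Tet enzymes oxidize methylated cytosine and need ferrous iron for it, as do the prolyl hydroxylases of oxygen sensing and several histone demethylases. Bisulfite reads do not tell methylated from hydroxymethylated cytosine.

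Promoters were tied to the tiles through the spacing of their CpGs. Of 13885 RefSeq promoter records with at least 10 CpGs in 300 bases, 11863 matched the listed CpG positions at exactly 1 place, without use of the chromosome, and 99.7% of these lay on the chromosome that RefSeq gives. The sequences below are the 250 bases before the start of 6 such promoters, from RefSeq on GRCr8, with each CpG in capitals. Tfrc, the transferrin receptor, and Aco1, the cytosolic aconitase that doubles as iron regulatory protein, stand for iron handling. Tet2 and Dnmt1 stand for the removal and upkeep of methylation. Fto, an iron-dependent RNA demethylase, shows how 1 sample can carry a tile's difference. Dazl, an RNA-binding protein of germ cells, is shown for contrast because its CpG-dense promoter was methylated. Their places on GRCr8 are chr11:81690319-81690568 on the reverse strand for Tfrc, chr5:60055645-60055894 on the forward strand for Aco1, chr2:224746187-224746436 on the reverse strand for Tet2, chr8:27762842-27763091 on the reverse strand for Dnmt1, chr19:31864918-31865167 on the reverse strand for Fto and chr9:18193113-18193362 on the forward strand for Dazl.
Tfrc: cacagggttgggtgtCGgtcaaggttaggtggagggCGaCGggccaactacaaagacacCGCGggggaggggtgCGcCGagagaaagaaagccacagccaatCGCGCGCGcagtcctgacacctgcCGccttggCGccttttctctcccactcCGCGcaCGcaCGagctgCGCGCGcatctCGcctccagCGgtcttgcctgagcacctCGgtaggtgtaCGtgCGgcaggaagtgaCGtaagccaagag
Aco1: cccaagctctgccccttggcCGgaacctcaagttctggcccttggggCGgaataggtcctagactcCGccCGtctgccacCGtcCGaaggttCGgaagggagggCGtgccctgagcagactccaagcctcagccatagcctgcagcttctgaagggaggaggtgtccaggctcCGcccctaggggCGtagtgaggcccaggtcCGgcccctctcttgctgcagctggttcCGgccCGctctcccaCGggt
Tet2: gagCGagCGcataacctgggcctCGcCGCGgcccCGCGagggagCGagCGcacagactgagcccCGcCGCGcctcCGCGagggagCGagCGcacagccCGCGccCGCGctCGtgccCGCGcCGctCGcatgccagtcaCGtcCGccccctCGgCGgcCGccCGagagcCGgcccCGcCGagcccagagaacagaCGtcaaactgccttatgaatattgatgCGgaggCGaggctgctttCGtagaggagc
Dnmt1: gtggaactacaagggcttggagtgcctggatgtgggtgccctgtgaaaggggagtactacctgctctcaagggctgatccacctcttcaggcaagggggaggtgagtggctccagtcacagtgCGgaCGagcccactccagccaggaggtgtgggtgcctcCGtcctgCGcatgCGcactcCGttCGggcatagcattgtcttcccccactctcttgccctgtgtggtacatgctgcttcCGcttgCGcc
Fto: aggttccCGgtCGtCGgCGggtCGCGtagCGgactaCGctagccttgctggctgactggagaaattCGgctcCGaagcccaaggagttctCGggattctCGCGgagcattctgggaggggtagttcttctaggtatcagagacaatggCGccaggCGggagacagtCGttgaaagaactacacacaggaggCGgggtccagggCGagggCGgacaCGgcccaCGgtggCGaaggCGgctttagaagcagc
Dazl: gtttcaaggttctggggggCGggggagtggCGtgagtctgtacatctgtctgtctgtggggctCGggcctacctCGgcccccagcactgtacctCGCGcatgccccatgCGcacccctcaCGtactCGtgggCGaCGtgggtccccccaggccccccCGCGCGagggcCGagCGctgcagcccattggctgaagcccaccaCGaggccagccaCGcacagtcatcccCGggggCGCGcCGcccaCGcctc

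The windows held 26 CpGs in Tfrc, 14 in Aco1, 38 in Tet2, 9 in Dnmt1, 23 in Fto and 23 in Dazl. In the data, the tile at the Tfrc start had a pooled methylation of 3.67%, Aco1 had 2.88%, Tet2 had 3.39%, Dnmt1 had 6.87% and Fto had 6.57%. The tile at the Dazl start had 74 CpGs, and its pooled methylation was 83.2%. Dazl and Fto had the same number of CpGs in the window. Since Dazl was picked because it was methylated, nothing is read here about CpG number and level.

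The label of island-like promoters was compared with the matched starts. Only promoter records with at least 10 CpGs could be matched, which were 13885 of 33469. The matched starts were thus picked for CpG number, which is also part of the choice of tiles. Their shares do not hold for all promoters, and the label was not tested for promoters with fewer CpGs. Of 11451 matched autosomal starts, 8467 (73.9%) lay in short unmethylated tiles. Another 236 lay in unmethylated dense tiles of longer runs, 844 in dense tiles between 10% and 70%, and 238 in dense tiles at 70% or more. Tiles with fewer than 30 CpGs held 1252 starts at 10% or more and 392 under 10%. The last 22 lay in tiles short of reads. Seen from the tiles, 7010 of 16782 (41.8%) held a matched start, and 769 of these held starts on both strands. For the remaining 9772 tiles no start was matched here. They may include promoters with no unique match and tiles beside a promoter, and no annotation of rn4, the build of the files, was used. The name promoter is therefore used below only for tiles with a matched start.

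Short motifs were counted on both strands over the 300 bases from 250 before to 50 after the start. No motif searched contains another, and all except CCAAT and TATAAA include a CpG. The GC box GGGCGG, a binding sequence of Sp1, occurred in 72.1% of the starts in short unmethylated tiles, in 65.5% of all matched autosomal starts and in 33.1% of all 33469 promoter records. Among the 238 starts in dense tiles at 70% or more it occurred in 26.5%. The TATA letters TATAAA occurred in 4.48%, 5.60%, 14.2% and 12.2% of those sets, in the same order. The letters CCAAT were spread evenly, with 36.8% in the unmethylated tiles and 37.5% in all records.

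CCGGAAGT, the binding letters of ETS factors, occurred in 9.44% of the starts in short unmethylated tiles, in 8.51% of all matched autosomal starts and in 3.81% of all records. The NRF1 letters GCGCATGC occurred in 5.95%, 5.54% and 2.47% of these sets, the cAMP response element TGACGTCA in 3.58%, 3.40% and 1.83%, and the E box CACGTG in 10.5%, 10.3% and 6.42%. All matched starts had to hold at least 10 CpGs to be matched, while all records did not. Of the 11451 matched autosomal starts, 8467 were those in short unmethylated tiles. These sets are thus largely the same, and nothing is read from how close their shares were. In the 238 starts of methylated dense tiles the ETS letters occurred in 2.52%, the NRF1 letters in 6.72%, the cAMP response element in 4.20% and the E box in 13.9%. The median GC content was 63.7% in the starts of short unmethylated tiles, 55% in those of methylated dense tiles and 51.7% in all records. The ratio of observed to expected CpGs was 0.828, 0.624 and 0.392 in the same order. The part of base composition in the motif shares was not tested. Of the windows printed above, Dnmt1 and Dazl contain the NRF1 letters, Aco1, Tet2, Fto and Dazl contain the GC box, and Tfrc and Dazl contain CCAAT.

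The tiles held between 30 and 167 CpGs with a median of 54, in all 988872 CpGs or 4.63% of the autosomal CpGs. Pooled methylation ran from 0.314% to 9.995%, with a median of 4.03% and quartiles of 2.93% and 5.73%. Within tiles most CpGs were lower still, with a median of 1.68% among the CpGs with 10 or more reads in every sample. Of these CpGs, 41.3% were under 1% and 90.3% under 10%. Some CpGs went against their tile, as 1388 CpGs (0.252%) were at 50% or more and 262 were at 50% or more in every sample.

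Methylation was lower in tiles with more CpGs. The median pooled value was 5.53% in the 3436 tiles with 30 to 39 CpGs, 3.85% in the 5358 tiles with 50 to 69, and 3.09% in the 1020 tiles with 100 or more. The median SD between the 6 animals followed the same order, with 3.62, 2.44 and 1.68 points. Run length made less difference, with medians of 4.24% in the 4666 tiles that stood alone, 4.05% in the 8133 tiles of pairs, 3.72% in the 2856 tiles of runs of 3 and 3.92% in the 1127 tiles of runs of 4. By chromosome the level ranged from 3.98% to 4.28%. Since more CpGs also bring more reads, the part of read number in these spreads was not tested.

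**Figure D1:**
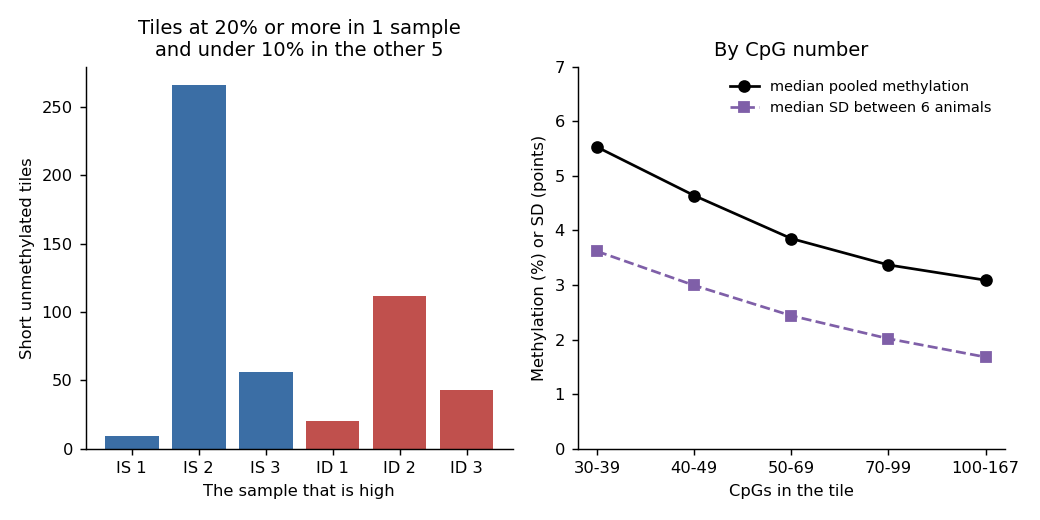
Left, bars give for each sample (IS iron-sufficient, ID iron-deficient) the number of short unmethylated tiles at 20% or more in that sample and under 10% in the other 5, from 9 in IS 1 to 266 in IS 2. Right, points give by CpG number the median pooled methylation (percent) and the median SD between the 6 animals (percentage points), which both decline from the sparsest to the densest tiles.

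Tiles with a matched start were the less methylated ones. Their median pooled methylation was 3.73%, against 4.29% in tiles without one, and they held more CpGs, with medians of 59 and 50. The level summed over tiles with a start ran from 3.53% to 4.42% between samples, and over tiles without a start from 4.07% to 5.06%. In every sample the tiles with a start were the lower. Tiles with starts on both strands, as in bidirectional promoters, had a median of 3.41%.

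Methylation was then averaged in bins of 100 nucleotides around the 8464 starts in short unmethylated tiles, with starts at the same position and strand counted once. From 200 nucleotides before to 200 after the start, methylation was 3.09%, 3.37% and 3.18% in the iron-sufficient samples and 2.86%, 3.13% and 3.57% in the iron-deficient samples. The groups overlapped, with means of 3.21% ± 0.142 (SD, n = 3) and 3.19% ± 0.360 (SD, n = 3) and an exact permutation p of 0.9. Methylation climbed on both sides, to 22.9% to 26.0% at 900 to 1000 nucleotides before the start and 18.4% to 21.0% at the same distance after it. Between 4000 and 5000 nucleotides away it stood at 65.1% to 67.0% before the start and 68.8% to 70.7% after it.

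The unmethylated trough was not symmetric. In each sample the far level was higher on the gene side, by 3.80 points on average and by 3.09 to 4.28 points between samples (higher in 6 of 6 samples, two-sided exact sign-flip permutation p = 0.031, the smallest that 6 samples can give). Methylation reached 50% of its far level 1102 to 1130 nucleotides before the start and 1246 to 1277 nucleotides after it. By this measure the trough reached 139.9 nucleotides farther into the gene on average. The values ran from 122.0 to 149.2 between samples (6 of 6 samples, exact sign-flip p = 0.031). The far level was higher after the start, so the 50% point lay at a higher methylation there. The iron-sufficient mean was 33.9% both at 1100 to 1200 nucleotides before the start and at 1200 to 1300 after it. Diet did not separate these edges beyond the spread between animals. The distance before the start was 1128 ± 2.40 nucleotides in the iron-sufficient and 1114 ± 12.9 in the iron-deficient samples (SD, n = 3 each, exact permutation p = 0.2), and after the start it was 1265 ± 12.3 and 1257 ± 14.4 (exact p = 0.5).

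**Figure D2:**
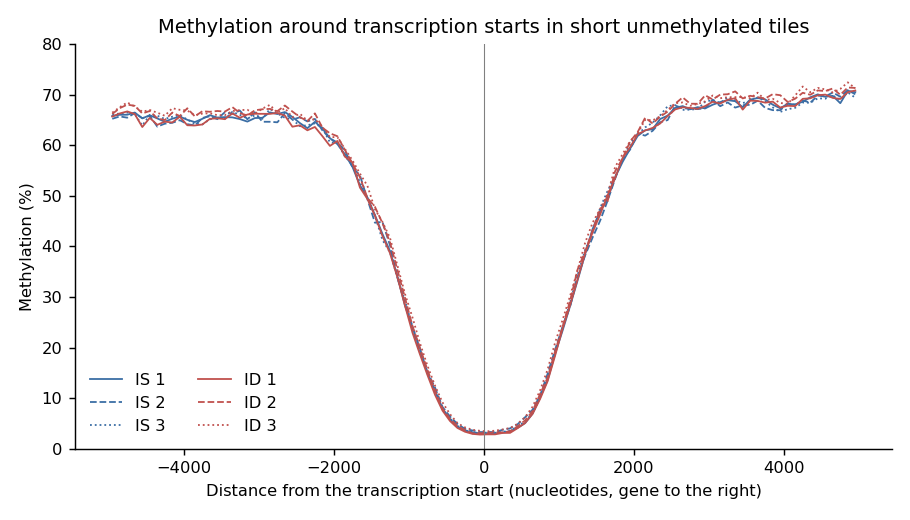
Methylation (percent) in bins of 100 nucleotides against distance from the transcription start (nucleotides) for the 8464 matched starts in short unmethylated tiles, 1 line per sample (IS iron-sufficient, ID iron-deficient). All 6 lines lie close together, with a floor of about 3% at the start and a higher plateau on the gene side.

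The first question of the design was whether the level of these tiles differed between diets. Summed over the 16782 tiles, methylation was 4.00%, 4.34% and 4.13% in the iron-sufficient samples and 3.82%, 4.09% and 4.76% in the iron-deficient samples. The lowest and the highest sample were both iron-deficient, and the groups overlapped. The means were 4.16% ± 0.169 and 4.22% ± 0.487 (SD, n = 3 each), a difference of 0.0664 points with a two-sided exact permutation p of 0.9, where 3 against 3 cannot go below 0.1. The difference was not distinguishable from the spread between animals. On 17 of the 20 chromosomes the iron-deficient mean was the higher, and on 0 of the 20 were the groups apart. The chromosomes share the same 6 samples. Over all tiles the difference was -0.203 points without iron-deficient replicate 3 and -0.0109 without iron-sufficient replicate 1.

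The level followed that of the mitochondrial CpGs of the same sample. Mitochondrial methylation was 3.80%, 4.15% and 4.04% in the iron-sufficient samples and 3.52%, 4.06% and 4.88% in the iron-deficient samples. Pearson's r over the 6 samples was 0.984 (permutation p = 0.00278) and Spearman's rho was 0.943 (permutation p = 0.0167), for the single relation computed. Without the 2 samples farthest from the median, iron-deficient replicates 1 and 3, r was 0.852 with n = 4 and a permutation p of 0.208. With 4 samples over a narrower range this does not show whether the relation holds without them. The difference between the tiles and the mitochondrial CpGs ran from -0.118 to 0.301 points, and 52.5% to 62.1% of the tiles lay under the mitochondrial level of their sample. Within 200 nucleotides of the start, methylation was below the mitochondrial level in 6 of 6 samples, with differences of -1.31 to -0.656 points. The mitochondrial level is often read as an upper limit of cytosines left unconverted by bisulfite, and the part of incomplete conversion in these tiles was not tested.

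**Figure D3:**
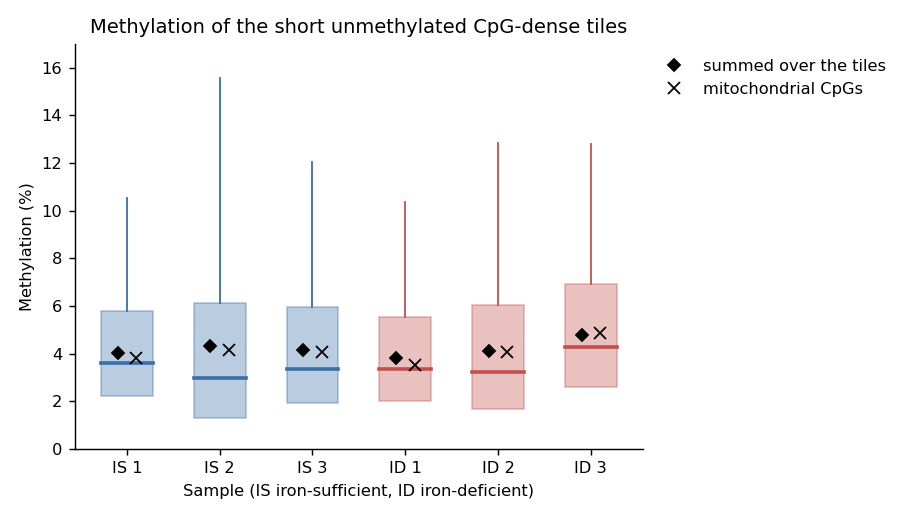
Methylation (percent) of the 16782 short unmethylated tiles in each sample (IS iron-sufficient, ID iron-deficient). Boxes span the quartiles with the median as a line, whiskers reach to the 95th percentile, diamonds give the level summed over the tiles and crosses the mitochondrial CpGs. ID 3 is the highest in both levels and IS 2 has the longest upper whisker, at 15.6%.

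The diet difference of these tiles was compared with that of other classes of tiles in the same samples. In 1498 dense tiles under 10% that lay in runs of 5 or more, the iron-deficient mean was 0.186 points higher (exact permutation p = 0.7). In 11520 dense tiles at 70% or more it was 0.915 points higher (86.7% against 85.8%, p = 0.1 by exact permutation), and in all other autosomal tiles 0.854 points higher (74.2% against 73.4%, exact p = 0.2). The diet difference of the short unmethylated tiles minus that of the other class was -0.120, -0.849 and -0.787 points, in the same order. With a sample left out these values ran from -0.165 to -0.0484, from -1.27 to -0.504 and from -0.954 to -0.534. The first was -0.0484 without iron-sufficient replicate 3, and the second was -0.504 without iron-sufficient replicate 2. Exact permutation p was 0.2, 0.3 and 0.1 for the 3 differences and 0.3 for each after Benjamini-Hochberg adjustment over the 3. A difference of the diet effect between the classes was not detectable with 3 animals per group.

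The tiles directly next to the runs, 20373 in number, were at intermediate methylation. They were at 46.3%, 46.7% and 46.5% in the iron-sufficient samples and at 46.6%, 47.9% and 48.0% in the iron-deficient samples. The lowest iron-deficient sample lay below the highest iron-sufficient one. The means of 46.5% ± 0.188 and 47.5% ± 0.802 (SD, n = 3 each) differed by 1.01 points, with an exact permutation p of 0.2.

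Each tile was then tested by edgeR's quasi-likelihood test on methylated and unmethylated counts, fitted over 936415 tiles with Benjamini-Hochberg adjustment. Of the 16782 short unmethylated tiles 16772 entered the fit, and edgeR called 0 of them at an adjusted p of 0.05, beside 0% of all tiles. The smallest unadjusted p was 0.000123. At an unadjusted p under 0.05, edgeR gave 1288 tiles (7.68%), 776 higher and 512 lower in iron deficiency, beside 3.02% of all tiles. With limma on log2 ratios the count was again 0 after adjustment, and 695 tiles (4.14%) were under 0.05 unadjusted, beside 4.08% of all tiles. The larger share was thus seen with the count model and not with limma.

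Tiles were also counted by whether the 3 samples of a group all lay on one side of the other 3. Iron-deficient samples were all higher in 1005 tiles (5.99%), beside 6.05% of all autosomal tiles tested, and all lower in 650 tiles (3.88%), beside 4.03%. Both shares were near the background. The median difference among them was 3.66 points upward and -3.68 points downward, and 24 and 28 of them passed 10 points. The preponderance of higher tiles rested on iron-deficient replicate 3. Without it 1538 tiles were higher (9.17%) and 1708 lower (10.2%), beside 11.7% and 8.66% of all autosomal tiles, where the higher ones stayed in the majority. With each of the other samples left out in turn the higher short unmethylated tiles stayed in the majority.

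Over all tested tiles the diet difference, weighted by coverage, had a median of 0.0482 points and quartiles of -1.56 and 1.64. It was within 5 points in 90.9% of the tiles and beyond 10 points in 116. The median over all autosomal tiles in the fit was 0.797 points. Iron-deficient values were the higher in 50.9% of the short unmethylated tiles and in 54.4% of all autosomal tiles.

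At single CpGs, the criteria of the study were applied, namely 10 or more reads in every sample, a difference of group means of 10 points or more, weighted by coverage, and a p no higher than 0.05. They were met by 2636 of 550625 CpGs (0.479%), beside 3.21% of all autosomal CpGs tested. The choice of tiles pooled under 10% leaves less room for a difference of 10 points, so nothing is read from the lower share. Of the 2636 CpGs, 1509 were higher and 1127 lower in iron deficiency. The background shares of the autosomes were 1.64% and 1.57%. The CpGs were scattered, as 2186 tiles (13.0%) held at least 1 and 15 tiles held 5 or more. The direction rested on iron-sufficient replicate 2, without which 1855 CpGs were higher and 3119 lower. With each of the other samples left out the higher ones stayed in the majority, and without iron-deficient replicate 2 the counts were 2946 and 1219. The share of CpGs that met the criteria was then 0.718% without the former and 0.694% without the latter, beside 3.63% and 3.40% of all autosomal CpGs tested.

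The spread between animals was then described, which for these tiles is bounded by the limit of 10% on the pooled value. The median SD between the 6 animals was 2.62 points in the short unmethylated tiles, 2.76 in the unmethylated tiles of long runs, 5.08 in dense tiles at 70% or more and 9.85 in all other tiles. Relative to the variance that independent reads would give, the variance was 34.7 times as large at the median, against 32.8 in long runs, 20.9 in dense tiles at 70% or more and 16.0 in all other tiles. CpGs on a single read are counted separately, which raises these ratios. Where animals differ, the ratio also rises with the number of reads in a tile, and classes differed in reads. Neither part was tested, so nothing is read from the order of the classes in this ratio. All 6 samples were under 10% in 10295 tiles (61.3%).

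Some tiles were high in a single animal. In 506 tiles (3.02%) 1 sample was at 20% or more while the other 5 were under 10%. Iron-sufficient replicate 2 was the high sample in 266 of them, iron-deficient replicate 2 in 112, iron-sufficient replicate 3 in 56, iron-deficient replicate 3 in 43, iron-deficient replicate 1 in 20 and iron-sufficient replicate 1 in 9. In 11 tiles at least 2 samples were at 20% or more. The limit of 10% on the pooled value leaves little room for 2 such samples, so nothing is read from how few these tiles were. In tiles with a single high sample, that sample had fewer reads than usual. The choice of tiles bears on this. Pooling by reads keeps a tile under 10% more easily when its high sample has few reads. For iron-sufficient replicate 2 the median was 1280 reads there and 1720 over all these tiles, and for iron-deficient replicate 2 it was 1792 and 2904. Both are also the samples with the fewest CpGs listed. The part of read loss in these single high values was not tested.

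Coverage was higher in the short unmethylated tiles than elsewhere. Reads per listed CpG were 40.5, 37.9 and 53.3 in the iron-sufficient samples and 55.1, 59.0 and 30.8 in the iron-deficient samples. The ratio to all other autosomal tiles ran from 1.26 to 1.56 (fold 1.42, higher in 6 of 6 samples, exact sign-flip permutation p = 0.031). Against dense tiles at 70% or more the fold was 1.33 and against unmethylated tiles of long runs 1.08, each higher in 6 of 6 samples with the same p. The ratio to other tiles was 1.42 in the iron-sufficient and 1.43 in the iron-deficient samples on average (exact permutation p = 0.9). Iron-sufficient replicate 2 had the lowest ratio to each class. It listed 89.7% of the CpGs of these tiles and 78.8% of those of other tiles.

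The 5 tiles with the largest higher values in iron deficiency among those with separate groups are given as description, since their difference chose them. Positions of tiles are on rn4 throughout. The tile chr18:39559001-39560000, 962 nucleotides from the start of Kcnn2, a calcium-activated potassium channel of neurons, was at 1.44%, 2.30% and 1.09% in the iron-sufficient and 4.86%, 26.5% and 11.8% in the iron-deficient samples. The tile of the Tk2 start, the mitochondrial thymidine kinase, at chr19:667001-668000, was at 0.858%, 2.52% and 1.78% against 9.24%, 22.0% and 3.90%. In each of the 5 tiles iron-deficient replicate 2 was the highest sample.

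The other 3 had no matched start within 1000 nucleotides. The tile chr10:27313001-27314000 was at 2.03%, 0% and 2.30% in the iron-sufficient and 5.88%, 38.3% and 2.90% in the iron-deficient samples. For chr5:149519001-149520000 the values were 4.29%, 2.10% and 3.95% against 7.85%, 33.3% and 16.1%. For chr2:181166001-181167000 they were 0.675%, 1.68% and 4.30% against 5.11%, 29.9% and 5.04%. The pooled differences of the 5 tiles ran from 13.3 to 15.3 points, and every adjusted p was 1 by edgeR.

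Among tiles with lower values in iron deficiency, the largest difference was at chr2:258015001-258016000, 558 nucleotides from the start of Wls, the carrier that brings Wnt proteins to the cell surface. It was at 7.25%, 32.3% and 11.7% in the iron-sufficient and 0.227%, 1.06% and 1.66% in the iron-deficient samples, a difference of -17.0 points. The tile of the R3hcc1l start, chr1:248346001-248347000, was at 19.7%, 21.8% and 8.69% against 3.36%, 3.14% and 1.40%. At this tile 2 iron-sufficient animals were close to 20%, which sets it apart from tiles with a single high animal.

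The tile of the Tmem9 start, chr13:49060001-49061000, was at 5.61%, 63.9% and 20.7% against 5.37%, 1.77% and 2.00%, where the value of 63.9% came from 191 reads. The tile chr8:69057001-69058000, 247 nucleotides from the start of Dennd4a, a Rab exchange factor, was at 3.43%, 24.5% and 7.58% against 0.173%, 0.928% and 2.14%. The tile chr9:73564001-73565000, 59 nucleotides from the start of LOC103690558, was at 5.67%, 15.3% and 30.1% against 2.18%, 1.86% and 1.55%. Iron-sufficient replicate 2 was the highest sample in 4 of these 5 tiles. Every adjusted p was 1 by edgeR.

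**Figure D4:**
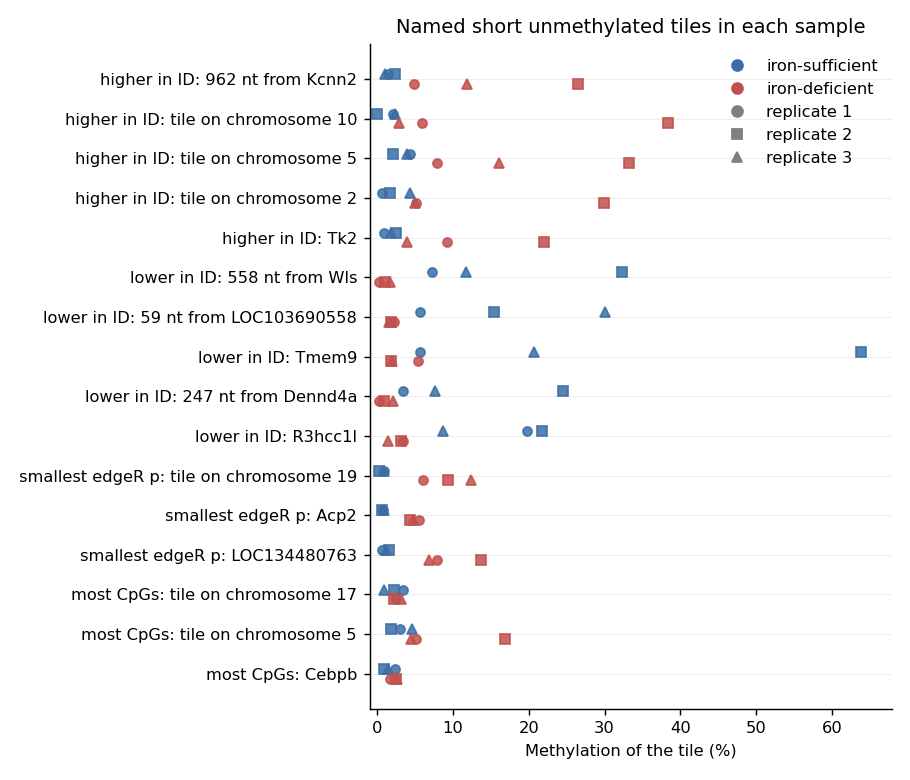
Methylation (percent) of named short unmethylated tiles, 1 marker per sample, with color for the group (ID iron-deficient) and shape for the replicate. Tiles with the largest higher values in ID each have replicate 2 of that group at the far right, while the tiles with the smallest edgeR p show all 3 iron-deficient samples to the right of the iron-sufficient ones.

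The 3 tiles with the smallest edgeR p had tighter groups. The tile of the Acp2 start, a lysosomal acid phosphatase, at chr3:75559001-75560000, was at 0.727%, 0.589% and 0.879% in the iron-sufficient and 5.57%, 4.30% and 4.77% in the iron-deficient samples, on 849 to 2352 reads per sample. No single animal carried this difference of 4.20 points. The tile chr19:27433001-27434000, with no matched start near it, was at 0.849%, 0.205% and 0.861% against 6.05%, 9.30% and 12.4%.

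The tile of the LOC134480763 start, chr10:15203001-15204000, was at 0.687%, 1.52% and 1.22% against 7.86%, 13.6% and 6.85%. In all 3 tiles the iron-deficient samples were the higher ones. The unadjusted p was 0.000172 for Acp2, 0.000123 for chr19 and 0.000174 for LOC134480763, and the adjusted p was 1 for each by edgeR. Such p-values are the smallest of 16772 and were not called.

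The tiles with the most CpGs were uniformly low with 1 exception. The tile of the Cebpb start, a transcription factor of the C/EBP family, at chr3:158826001-158827000, held 164 CpGs and was at 2.36%, 0.912% and 1.36% in the iron-sufficient and 1.67%, 2.49% and 2.55% in the iron-deficient samples. The tile chr17:3925001-3926000 held 167 CpGs and ranged from 0.896% to 3.34%. The tile chr5:22530001-22531000, also with 167 CpGs, ranged from 1.78% to 5.07% in 5 samples and stood at 16.8% in iron-deficient replicate 2.

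The tiles with the largest SD each had 1 very high sample, iron-sufficient replicate 2. At chr1:262187001-262188000 it was at 90% on 70 reads, with 2.09% to 16.1% in the other samples, and this tile did not enter the fit. At chr13:44041001-44042000 it was at 62.6% on 479 reads, with 0.544% to 6.44% in the others. The Tmem9 tile described above was the third.

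Tiles just inside and just outside the limit of 10% overlapped in their sample values. Just inside, chr4:6066001-6067000 was pooled at 9.995% with 7.48% to 12.9% in the samples, chr1:95653001-95654000 at 9.993% with 6.99% to 11.3%, and chr12:7833001-7834000 at 9.993% with 4.14% to 14.2%. Just outside, chr2:193588001-193589000 was at 10.003% with 6.59% to 15.7%. The tile chr2:115598001-115599000, 466 nucleotides from the start of Tnik, a kinase of the postsynapse, was just outside because iron-sufficient replicate 2 was at 37.3% while the others were at 3.97% to 8.73%. At chr7:117016001-117017000 the values were 1.11% to 2.86% in 4 samples, with 18.7% for replicate 3 of the iron-sufficient and 18.3% for replicate 2 of the iron-deficient group.

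Promoters of gene lists were described next. The lists were chosen by function, and only genes with a matched start are counted. Of 14 matched genes of DNA methylation and demethylation, 12 had a start in a short unmethylated tile, in 13 tiles with pooled methylation of 2.56% to 6.87%. EdgeR called 0 of the 13 tiles, and 0 had an unadjusted p under 0.05 by edgeR or limma, beside 3.02% and 4.08% of all tiles. The groups were apart in 0, beside 6.05% higher and 4.03% lower of all autosomal tiles. The median difference was -0.861 points, beside 0.0482 in all short unmethylated tiles and 0.797 in all autosomal tiles.

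Among the oxidizing enzymes, Tet2 was at 4.64%, 4.36% and 3.24% in the iron-sufficient and 1.22%, 3.02% and 3.72% in the iron-deficient samples. Tet3, with a pair of matched starts, was at 3.63% and 3.81% pooled. The start of Tet1 lay in a tile with 27 CpGs at 5.36%, which was too sparse for the choice. Tdg, the glycosylase that removes oxidized cytosine, was at 8.09%, 9.06% and 5.79% against 4.66%, 1.44% and 6.25%, and the groups overlapped.

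Dnmt1, whose promoter is printed above, was at 4.83%, 2.47% and 3.57% in the iron-sufficient and 4.28%, 22.5% and 8.68% in the iron-deficient samples. Its difference of 6.37 points was carried by iron-deficient replicate 2. Among the CXXC proteins, Kdm2a was at 3.08% pooled over 114 CpGs, Cxxc1 at 3.01% and Kdm2b at 6.48%. The genes Mbd1, Mbd2, Mbd3 and Mbd4 of the methyl-CpG binding domain family were at 6.66%, 3.69%, 2.82% and 2.56%. Gadd45b lay in an unmethylated run of 6 tiles at 2.31%.

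Of 16 matched iron handling genes, 15 had a start in a short unmethylated tile, at 1.68% to 8.67% pooled. None of the 15 passed adjustment in edgeR, and 3 had an unadjusted p under 0.05 by edgeR and 1 by limma, beside 3.02% and 4.08% of all tiles and 7.68% and 4.14% of the short unmethylated tiles. The groups were apart in 4, of which 3 were higher and 1 lower in iron deficiency, beside 6.05% and 4.03% of all autosomal tiles. The median difference was -0.103 points. The exception among the 16 was Tf, transferrin itself, whose tile with 29 CpGs was at 34.8%.

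Slc39a8, a metal importer, had the lowest level and was at 1.33%, 0.397% and 0.845% in the iron-sufficient and 2.10%, 2.39% and 3.50% in the iron-deficient samples (unadjusted p = 0.0115 and adjusted p = 1 by edgeR). Iscu, the scaffold of iron-sulfur cluster assembly, was at 1.23%, 2.50% and 1.34% against 4.06%, 2.58% and 7.02% (unadjusted p = 0.0317, adjusted p = 1 by edgeR). Pcbp2, an iron chaperone, was at 2.90%, 2.61% and 1.66% against 4.45%, 8.84% and 3.70%. Its relative Pcbp1 was at 8.27%, 13.5% and 2.32% against 2.23%, 1.95% and 2.09% (unadjusted p = 0.0299, adjusted p = 1 by edgeR). The differences were 1.63 points for Slc39a8, 2.39 for Iscu, 2.67 for Pcbp2 and -6.75 for Pcbp1, and for Iscu and Pcbp1 the nearest samples of the groups were less than 0.1 points apart.

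For Tfrc, Slc11a2, Slc40a1, Aco1 and Ireb2, picked from the list by their known roles, the groups overlapped. Tfrc was at 4.73%, 0.628% and 3.21% in the iron-sufficient and 8.04%, 0.657% and 3.61% in the iron-deficient samples. Slc11a2, the divalent metal importer, was at 5.38%, 1.87% and 10.4% against 8.76%, 3.07% and 5.81%, and Slc40a1, the iron exporter ferroportin, was at 3.99%, 5.61% and 5.24% against 2.33%, 6.56% and 6.68%. Aco1 was at 3.11%, 0% and 0.598% against 2.68%, 7.84% and 1.49%, and Ireb2, the other iron regulatory protein, was at 2.75% pooled. Replicate 2 was the extreme sample in several of these genes, in either direction.

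In oxygen sensing and the iron-dependent hydroxylases, 11 of 12 matched genes had a start in a short unmethylated tile, at 1.80% to 7.21%. EdgeR called 0 of 11, and none had an unadjusted p under 0.05 by edgeR or limma, beside 3.02% and 4.08% of all tiles. The groups were apart in 1, which was higher, beside 6.05% of all autosomal tiles. The median difference was -0.561 points. That gene was Kdm5b, a histone demethylase, at 2.95%, 3.07% and 3.41% in the iron-sufficient and 4.14%, 4.58% and 7.96% in the iron-deficient samples. Hif1a, the oxygen-regulated transcription factor, was low in every sample, from 1.17% to 3.65%.

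Several of these promoters were high in a single sample. Fto was at 1.47%, 2.60% and 24.8% in the iron-sufficient and 0.310%, 1.11% and 2.21% in the iron-deficient samples, so that its difference of -11.3 points came from iron-sufficient replicate 3. Kdm3a was at 18.2% in the same sample and at 1.47% to 3.77% in the others. Kdm4a was at 18.3% and Kdm5a at 14.3% in iron-sufficient replicate 2, with highest values of 4.40% and 7.39% in the other samples. The start of Hif1an, an asparagine hydroxylase of Hif1a, lay outside, in a tile of 20 CpGs at 11.5% pooled. Its groups did not overlap, with 9.73%, 10.5% and 32.7% in the iron-sufficient and 5.74%, 7.44% and 4.98% in the iron-deficient samples (unadjusted p = 0.0543, adjusted p = 1 by edgeR).

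Of 11 matched neuronal plasticity genes, 6 had a start in a short unmethylated tile, at 2.45% to 5.32%. No adjusted p passed in edgeR, and 0 of 6 were under 0.05 unadjusted by edgeR or limma, beside 3.02% and 4.08% of all tiles. The difference was negative in all 6, from -6.02 to -0.581 points with a median of -1.34, but the groups were apart in 0, beside 6.05% of all autosomal tiles that were higher and 4.03% that were lower. Of all short unmethylated tiles in the fit 8230 of 16772 had a negative difference, and their median was 0.0482 points. Egr1, an activity-induced transcription factor, was at 4.42%, 4.96% and 1.81% in the iron-sufficient and 1.87%, 1.60% and 2.51% in the iron-deficient samples. Creb1, which drives such genes, was at 3.33%, 1.64% and 5.01% against 1.92%, 0.813% and 4.12%. Vegfa, the angiogenic factor, had the largest difference and was at 18.1% in iron-sufficient replicate 1 and at 0.645% to 6.86% in the others.

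The remaining plasticity genes with a match lay outside by CpG number or run length. Homer1, Nlgn1, Camk2a and Nrgn had 24 to 28 CpGs in their tiles, with pooled methylation of 6.60%, 3.85%, 8.02% and 23.0%. Junb lay in an unmethylated run of 5 tiles at 2.87%. A gene without a match, such as one whose promoter has fewer than 10 CpGs, is not described by these counts.

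Housekeeping promoters served as the reference for constitutively active genes. Of 17 matched, 15 had a start in a short unmethylated tile, at 1.79% to 9.32%. After adjustment edgeR called 0 of 15, and 2 had an unadjusted p under 0.05 by edgeR and 2 by limma, beside 3.02% and 4.08% of all tiles. The groups were apart in 1, Vps29, which was higher, beside 6.05% of all autosomal tiles. The median difference was 0.939 points. Vps29, a subunit of the retromer, was at 2.19%, 0.880% and 3.09% in the iron-sufficient and 3.51%, 9.39% and 6.54% in the iron-deficient samples (unadjusted p = 0.0195, adjusted p = 1 by edgeR). Polr2a, the large subunit of RNA polymerase II, was at 6.11%, 0% and 0.286% against 10.4%, 3.00% and 13.1%. Gapdh, a glycolytic enzyme, was at 6.93%, 0% and 5.59% against 0.292%, 3.31% and 0.232%. Single tiles of housekeeping genes thus varied by several points between animals. The other 2 housekeeping genes, Psmb4 and Rplp0, lay in dense tiles at 14.1% and 11.8%.

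Imprinted and germ line genes mostly lay outside. Of 9 matched imprinted genes, which carry methylation on the copy from 1 parent, 3 had a start in a short unmethylated tile, namely Inpp5f at 3.08%, Igf2 at 4.16% and Dlk1 at 6.11%. The other 6 were at 23.6% to 49.9%. Of 11 matched germ line genes, which are silenced in somatic cells, only Dmrt1 lay in a short unmethylated tile, at 3.77%, and the other 10 were at 67.4% to 94.9%. EdgeR called 0 of these 4 promoters, and 0 were under 0.05 unadjusted by edgeR or limma, beside 3.02% and 4.08% of all tiles.

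**Figure D5:**
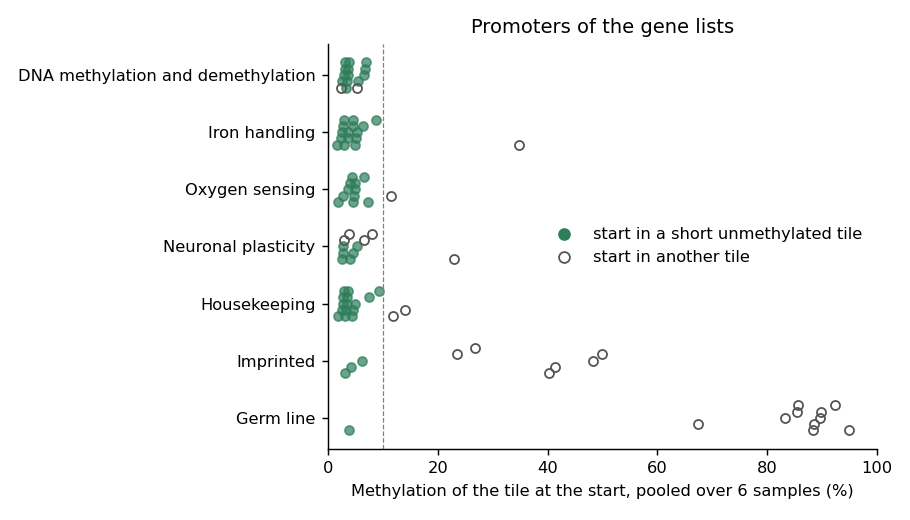
Each circle is the tile at a matched start, placed by its methylation pooled over 6 samples (percent) and grouped by gene list. Filled circles are short unmethylated tiles, all left of the dashed line at 10%, and open circles are starts in other tiles, which reach 49.9% in imprinted and 94.9% in germ line genes.

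Markers of brain cell types had few matched starts. Of the neuronal markers, Slc17a7, the vesicular glutamate transporter, lay in a short unmethylated tile at 7.48%, while Gad1 and Gad2 lay in longer unmethylated runs at 4.65% and 2.27%. The astrocyte marker Slc1a2 was at 3.01% in a short unmethylated tile, and Slc1a3 lay outside at 12.3%. Of the oligodendrocyte markers, Mbp, a myelin protein, had 1 start in a short unmethylated tile at 7.19% and another in a tile at 76.1%, and Olig2 lay in a run of 8 tiles at 3.98%. The endothelial marker Flt1 was at 2.55%, and 0 microglial markers had a match. EdgeR called 0 of the 4 marker promoters in short unmethylated tiles, and 0 were under 0.05 unadjusted by edgeR or limma, beside 3.02% and 4.08% of all tiles. Low methylation of a promoter in bulk tissue was thus found for markers of several cell types.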

How the data were processed

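WGBS of 3 iron-deficient and 3 iron-sufficient hippocampi was used, with groups taken from the sample labels. According to the methods of the study, reads of 100 bases, from paired or single sequencing, were trimmed and aligned to rn4 with BS Seeker. Where the reads of a pair overlapped, the first read was used, and both strands of a CpG were merged. The submitters' processing notes also name bcl2fastq. Each deposited table lists CpGs with their coverage, an unnormalized count of reads, and the fraction of it that was methylated. Removal of duplicate reads, and whether positions count from 0 or 1, are not given in the sources used here, and positions were read as counting from 1.

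Methylated counts were fraction times coverage, whole within 0.01 reads at every CpG. Total coverage ran from 432692526 to 780127386 reads over CpGs per sample, which sets counting error only, because no molecular identifiers were used and PCR copies may be counted. Tiles with at least 5 CpGs listed in all 6 samples and 50 reads in each entered the quasi-likelihood test of edgeR 4.0.16 under R 4.3.3, which had a term per sample and a common dispersion. As an alternative, limma 3.58.1 was run on log2 of the ratio of methylated to unmethylated counts, with 1 added to each. Values per animal were compared by exact permutation. Python 3.11.15, numpy 2.4.6, scipy 1.17.1 and pandas 2.3.3 were used. The main edgeR and limma fits and the single-CpG criteria were tried on simulated data. The exact permutation test of group means and the sign-flip test were tried on fixed values. Replicates are animals according to the study. Promoter sequences were from RefSeq (GRCr8) and were tied to a tile only where the CpG spacing in 300 bases, with at least 10 CpGs, fitted 1 place on the chromosome that RefSeq gives (11833 records).

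The tiles and gene lists were chosen with earlier results of these data known. Tiles named were the 5 largest differences in each direction with separate groups, the 3 smallest edgeR p-values, the 3 with most CpGs, the 3 with the largest SD, 3 on each side of the limit of 10%, and promoters of the lists. Alternatives changed the tile position, read and CpG minimums, the limit, the dispersion, the weighting, a replicate block, and which replicate was left out.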

Additional observations from a re-analysis of the deposited data

How the results depend on the processing

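Of 43 alternatives other than leaving out a replicate, 36 kept direction and side of the threshold or a count within 1.5 times. Where 3 animals were compared with 3, the exact permutation p could not go below 0.1. Those results could change only in direction, so keeping their side of the threshold was fixed in advance. The level difference of 0.0664 points became -0.0866 after subtraction of mitochondrial methylation, an alternative chosen after seeing the data, and ran from -0.203 to 0.270 with a replicate left out. It was negative without iron-sufficient replicate 1 and without iron-deficient replicate 3. A limit of 5% left 11127 tiles, by construction. Of the 11124 tested, 1096 had separate groups (9.85%), beside 10.1% of all autosomal tiles. The count of differential CpGs was 4110 with a minimum coverage of 5, 1042 with 20, 1338 with a difference of 20 points and 802 without weights. These were 0.593%, 0.341%, 0.243% and 0.146% of the CpGs tested, beside 3.61%, 2.85%, 2.86% and 1.41% of all autosomal CpGs tested. Fewer or more CpGs were tested at other coverages. With a replicate left out it ran from 2928 to 4974, beside 3.31% to 3.82% of all autosomal CpGs tested, and separate groups from 3194 to 3631 tiles, beside 19.1% to 21.5% of all autosomal tiles, since fewer samples separate more easily. The coverage ratio, 0.51 on the log2 scale, stayed at 0.48 to 0.54, where 5 samples cannot go below an exact p of 0.0625. EdgeR called 0 tiles in each setting. With trended dispersion 1013 tiles (6.04%) were under 0.05 unadjusted, beside 3.02% of all tiles. Without the filter there were 1536 (9.15%), beside 2.57%. With each replicate left out there were 1215 to 1708 (7.24% to 10.2%), beside 2.53% to 3.86%.

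Replicate numbers were not taken to pair the samples in the main tests. Deviations of the same numbers correlated at 0.0053, 0.0015 and 0.0046, and those of different numbers at -0.0051 to -0.00017. All these values were very small, and they do not show whether samples of the same number were paired. With a replicate block edgeR called 0 tiles, and 1587 (9.46%) were under 0.05 unadjusted, beside 2.79% of all tiles. The level difference stayed at 0.0664 points with an exact p of 1. With the block the tile next to the runs kept 1.01 points (exact p = 0.25, the smallest that 3 pairs can give), and no call changed. Depth limits single tiles most in iron-sufficient replicate 2 and iron-deficient replicate 3.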

Other observations

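On the X chromosome, which was not part of the choice, 509 tiles met the same limits. Their summed methylation was 4.01%, 3.96% and 3.86% in the iron-sufficient and 3.64%, 4.15% and 4.46% in the iron-deficient samples (exact permutation p = 0.7). All dense X tiles together, 989 in number, were at 25.2% to 26.7%. Coverage per CpG on X was 0.471 to 0.498 times that on the autosomes in the 6 samples.

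At 2 imprinted promoters outside the short unmethylated tiles the groups did not overlap, and iron-deficient samples were the higher, beside 6.05% of all autosomal tiles that were separate in this direction. The tile at the matched start of Gnas, which encodes a stimulatory G protein subunit, was at 29.4%, 28.5% and 24.7% in the iron-sufficient and 44.8%, 64.4% and 53.7% in the iron-deficient samples (unadjusted p = 0.00695, adjusted p = 1 by edgeR). The tile of Snrpn, a splicing factor gene, was at 46.4%, 39.7% and 28.7% against 56.2%, 58.2% and 63.3% (unadjusted p = 0.0297, adjusted p = 1 by edgeR). The other 4 imprinted promoters outside overlapped between groups.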
